A study of Homo sapiens with 4 samples.

Results

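The IL6 family cytokines, their receptors and the transcription factor through which they signal were followed after *SOX2* knockdown in LN229, a long-established line of human glioblastoma cells. The family comprised 10 genes, the cytokines *IL6*, *LIF*, *IL11* and *OSM*, the receptor genes *IL6R*, *IL11RA*, *IL6ST*, *LIFR* and *OSMR*, and *STAT3*. A probe was taken as a member where its gene symbol on the array was one of these names, which gave 14 of the 33096 gene probes. The family was chosen by the behaviour of *IL6* in this same comparison, which was known beforehand, so the differences of its members are given as a description with no test. The product of *SOX2* is an HMG-box transcription factor active in neural and embryonic stem cells. The series held 4 samples of total RNA, 2 from cells transfected with siRNA against *SOX2* (SOX2 knockdown) and 2 from cells transfected with a siRNA without a target (mock knockdown), all grown in DMEM and each hybridised to 1 chemiluminescent oligonucleotide array. The methods describe the replicates as separate transfections of the single line. Which siRNA sequence was used for the arrays is not given in the sources used here.

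Cytokines of this family share a receptor subunit, gp130, encoded by *IL6ST*. IL6 and IL11 first bind the ligand-binding receptors encoded by *IL6R* and *IL11RA*, while LIF and OSM use the gp130 partners encoded by *LIFR* and *OSMR*. Receptor assembly activates JAK kinases, which phosphorylate STAT3, and STAT3 then enters the nucleus and turns on genes that include its own inhibitor *SOCS3*. In glioblastoma, IL6 and LIF are known as signals that glioma cells both release and respond to. The arrays measured RNA, so neither secreted cytokine nor phosphorylated STAT3 was measured.

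Signals were divided by the 75th percentile of the gene probes of their array, so that a scaled signal of 1 equals that percentile. The ratio of signal to its noise (S/N) was over 3 for 63.8% to 69.4% of gene probes on the 4 arrays, and probes were compared where both arrays of a group, in either or both groups, had S/N over 3, which left 21256. Levels of different probes were not compared, since probes differ in how strongly they bind. The *SOX2* probe gave scaled signals of 0.467 and 0.701 in the mock arrays and 0.209 and 0.149 in the knockdown arrays, a log2 difference of -1.69 (SE 0.28, n = 2 per group), so the targeted gene was lower where the labels put it lower. The labels name LN229 in most fields and the colon line SW620 in one. Markers with more than 1 probe were read on the brightest. All 7 glioma line markers checked (*VIM*, *CD44*, *NES*, *S100B*, *GFAP*, *OLIG2* and *FABP7*) had S/N over 3 on all 4 arrays. Of 8 colon line markers only *VIL1* had S/N over 3 on all 4 arrays, and *CDH1* and *KRT20* had it on none. The dimmer probe of *GFAP* and that of *VIL1* had it on none. The summed scaled signal of the glioma markers was 119.7 and 138.9 in mock and 115.2 and 103.6 in knockdown. That of the colon markers was 0.333 and 0.304 in mock and 0.206 and 0.359 in knockdown, and sums over different probes are not set against each other. Of 5 leukocyte markers, *CD14*, *CD68* and *ITGAM* had S/N over 3 on every array and the pan-leukocyte marker *PTPRC* did not. The *CD68* probe also carries the symbol *EIF4A1*, and the other *ITGAM* probes did not pass on every array. The summed level of the leukocyte markers was 0.880 and 0.673 in the mock arrays and 0.721 and 1.02 in the knockdown arrays, so the groups overlapped.

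The *IL6* and *IL11* genes were the members over the 2-fold cutoff, and the 250 bases before their starts are shown so that the letters of known factor motifs can be seen beside the values that follow. RefSeq's promoter table (assembly GRCh38.p14) matched 8 of the 10 members, with 11 start sites between them. Capitals mark matches to 6 motifs searched on both strands, the 10-base NF-kappaB consensus, the C/EBP motif TTGCNNAA, the AP-1 motif TGANTCA, the CREB core ACGTCA, the STAT motif TTCNNNGAA and the SOX core ACAAAG. The *IL6* window lies on the plus strand at chr7:22726950-22727199 and the *IL11* window on the minus strand at chr19:55370464-55370713, and each ends at the base before the annotated start.
IL6: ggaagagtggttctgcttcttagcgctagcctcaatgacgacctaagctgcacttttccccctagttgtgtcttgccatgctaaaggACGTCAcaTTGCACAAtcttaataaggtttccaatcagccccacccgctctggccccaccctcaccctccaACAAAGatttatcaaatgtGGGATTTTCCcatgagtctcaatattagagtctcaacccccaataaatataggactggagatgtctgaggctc
IL11: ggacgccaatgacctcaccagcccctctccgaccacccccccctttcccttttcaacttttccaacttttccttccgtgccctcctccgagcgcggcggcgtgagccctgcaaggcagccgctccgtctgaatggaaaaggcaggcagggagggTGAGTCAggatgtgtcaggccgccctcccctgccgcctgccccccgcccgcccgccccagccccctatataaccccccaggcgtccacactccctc
The *IL6* window held 4 of the 6 motifs, with the CREB core beginning 163 bases before the start, C/EBP 155 bases, the SOX core 92 bases and NF-kappaB 73 bases before it. The *IL11* window held the AP-1 motif alone, beginning 96 bases before the start. No 2 of these matches overlapped.

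Among all 35116 windows of the same length the share that held each motif was 5.21% for NF-kappaB, 9.05% for C/EBP, 6.57% for AP-1, 7.1% for the CREB core, 6.57% for STAT and 13.7% for the SOX core. Of the other members, *LIFR* windows held STAT and C/EBP matches and the *OSMR* window a C/EBP match. The windows of *IL6R*, *IL11RA*, *IL6ST* and *STAT3* held none of the 6 motifs in these letters. The *IL6* window was 47.6% G and C and the *IL11* window 67.2%, against a median of 58.0% over all windows. A match is a description of the sequence and no factor's binding was measured by these arrays.

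*IL6*, which encodes the founding cytokine of the family, was low in mock knockdown and clearly measured after *SOX2* knockdown. Its probe gave scaled signals of 0.0545 and 0.0683 in the mock arrays and 0.640 and 0.631 in the knockdown arrays. The S/N was 4.8 and 9.24 in mock and 47.6 and 77.0 in knockdown, so the gene was above the limit of 3 on every array. Mean levels were 0.0614 ± 0.0098 in mock and 0.635 ± 0.00624 in knockdown (SD, n = 2 each), a ratio of 10.35 and a log2 difference of 3.38 (SE 0.16). Both knockdown arrays lay far above both mock arrays, and the difference was the third highest of the 21256 probes. The mock arrays differed from each other by 0.33 on the log2 scale and the knockdown arrays by -0.02, replicate 2 minus replicate 1. With normexp background correction in place of the deposited normalized signal, the log2 difference was 1.88. In bulk RNA such as this, more RNA per cell and more cells that express the gene cannot be told apart.

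*IL11*, whose protein acts through gp130 as IL6 does, had the second largest difference in the family. Scaled signals were 0.457 and 0.400 in the mock arrays and 0.834 and 0.893 in the knockdown arrays, so the groups did not overlap. The means were 0.428 ± 0.0406 and 0.863 ± 0.0414 (SD, n = 2 each), a ratio of 2.01 and a log2 difference of 1.01 (SE 0.14). This ratio sat at the 2-fold cutoff. It was 1.97 with scaling to the median, 1.99 in the authors' processed table, 1.75 with normexp, 1.89 without mock replicate 2 and 1.95 without knockdown replicate 2, all below the cutoff, and 2.08 to 2.16 without either of the other arrays.

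The other cytokine genes were *LIF*, which differed little between groups, and *OSM*, which was near background. *LIF*, which encodes leukemia inhibitory factor, gave scaled signals of 4.45 and 4.46 in mock and 4.56 and 3.92 in knockdown, with a ratio of 0.952 and a log2 difference of -0.07 (SE 0.14), and the groups overlapped. Before scaling, the *LIF* signal was 27.0 and 30.7 in mock and 30.7 and 23.4 in knockdown, and the 75th percentile of the arrays, 6.06 and 6.88 in mock and 6.74 and 5.96 in knockdown, was likewise higher on mock array 2 and knockdown array 1 than on the others. *OSM*, which encodes oncostatin M, had S/N of 0.99 and -0.76 in mock and 3.04 and 0.84 in knockdown. Its scaled signal was 0.0116 on both mock arrays, 0.0356 on knockdown array 1 and 0.0117 on knockdown array 2. Because S/N passed 3 on 1 of the 4 arrays, *OSM* was not well above background in either group, and no fold is given.

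**Figure D1:**
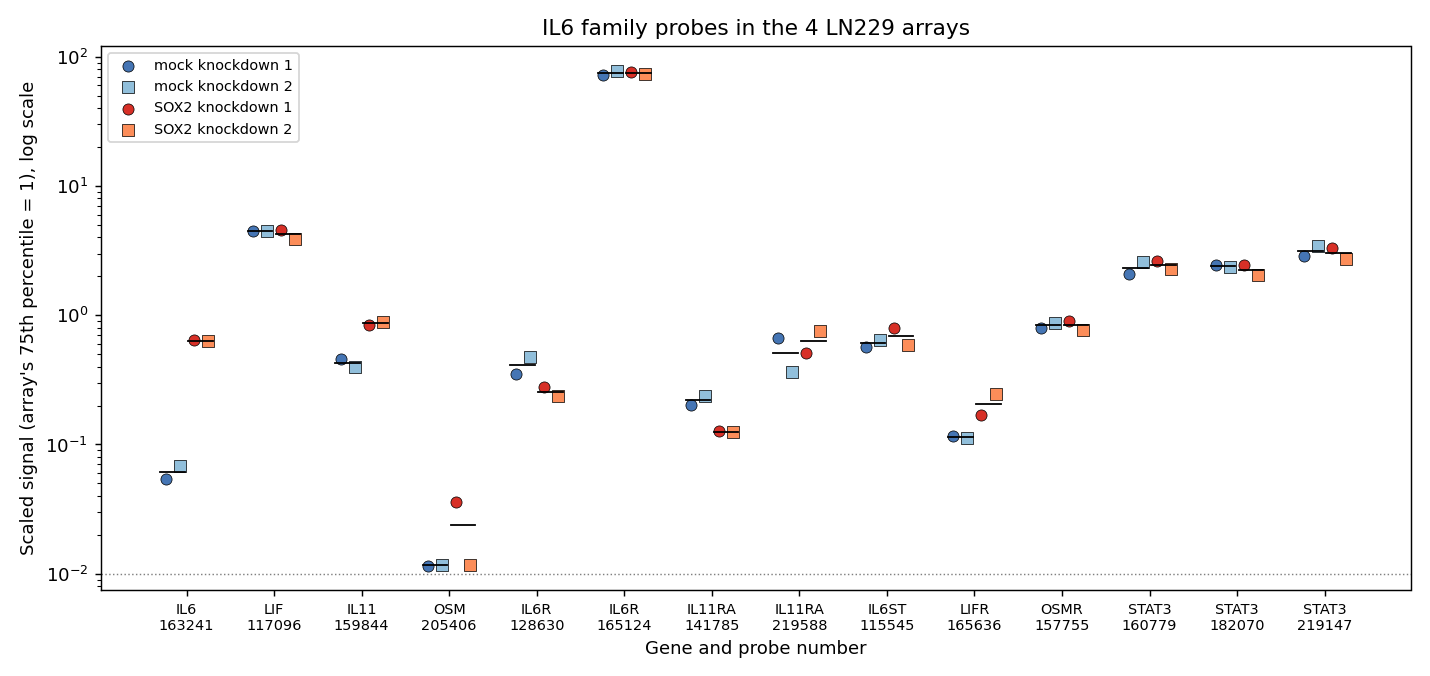
Scaled signal (y axis, log scale, array's 75th percentile = 1) of the 14 IL6 family probes (x axis) on each of the 4 arrays, with a short line at each group's mean and a dotted line at the floor of 0.01. Both knockdown points lie above both mock points for *IL6*, *IL11* and *LIFR* and below them for 1 probe each of *IL6R* and *IL11RA*; those of *OSM*, near the floor, are above by 0.0117 against 0.0116 on knockdown array 2.

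The ligand-binding receptors for IL6 and IL11 were each carried by 2 probes that differed in what they showed. The *IL6R* probe 128630, matched to RefSeq transcripts of the gene, gave 0.352 and 0.472 in mock and 0.276 and 0.237 in knockdown. Both knockdown arrays were lower, with means of 0.412 ± 0.0855 and 0.256 ± 0.0279 (SD, n = 2 each), a ratio of 0.622 and a log2 difference of -0.67 (SE 0.20). The other *IL6R* probe, 165124, belongs to a different gene ID and carries no transcript accession. It gave 72.7 and 78.0 in mock and 76.1 and 73.1 in knockdown and carried flag 4 on all 4 arrays. That flag was set on 100 to 131 gene probes per array, and on every array its dimmest probe was brighter than at least 99.1% of gene probes. What the flag stands for is not given in the sources used here. The difference of this probe is drawn in the figures and enters the family counts, but nothing is read from it.

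For *IL11RA*, probe 141785 gave 0.203 and 0.236 in mock and 0.126 and 0.124 in knockdown. Here too the knockdown arrays were lower, with means of 0.219 ± 0.023 and 0.125 ± 0.00141 (SD, n = 2 each), a ratio of 0.571 and a log2 difference of -0.80 (SE 0.14). Probe 219588 of the same gene, matched to another RefSeq transcript, gave 0.665 and 0.362 in mock and 0.506 and 0.750 in knockdown, and the groups overlapped. Its log2 difference was 0.33 (SE 0.37), and the replicates differed by -0.88 in mock and 0.57 in knockdown on the log2 scale. The 2 probes thus disagreed in direction, and when probes of a gene ID were averaged the *IL11RA* log2 difference was 0.05.

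Of the signal-transducing receptors, *LIFR* alone had groups that did not overlap. The *LIFR* probe gave 0.117 and 0.112 in mock and 0.168 and 0.245 in knockdown, with S/N of 3.73 and 3.22 and of 4.95 and 8.05. The ratio of means was 1.80 and the log2 difference 0.82 (SE 0.22), under the 2-fold cutoff. These signals were near the S/N limit, the ratio ranged from 1.46 without knockdown replicate 2 to 2.14 without knockdown replicate 1, and the log2 difference was 0.14 with normexp. *IL6ST*, encoding the shared subunit gp130, gave 0.569 and 0.647 in mock and 0.791 and 0.592 in knockdown, a ratio of 1.14 and a log2 difference of 0.17 (SE 0.20). *OSMR*, encoding the oncostatin M receptor subunit, gave 0.800 and 0.866 in mock and 0.895 and 0.772 in knockdown, a ratio of 1.0. For both of these receptors the knockdown arrays lay on either side of at least 1 mock array.

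*STAT3* was read by 3 probes of 1 gene ID, and in each the groups overlapped. Probe 160779 gave 2.07 and 2.57 in mock and 2.62 and 2.28 in knockdown, with a log2 difference of 0.08 (SE 0.17). The log2 difference was -0.11 (SE 0.15) for probe 182070 and -0.07 (SE 0.18) for probe 219147. The ratios were 1.055, 0.930 and 0.950 in the same order. The *STAT3* probes did not agree in sign, and the replicates of a group differed by 0.05 to 0.31 on the log2 scale, regardless of direction.

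**Figure D2:**
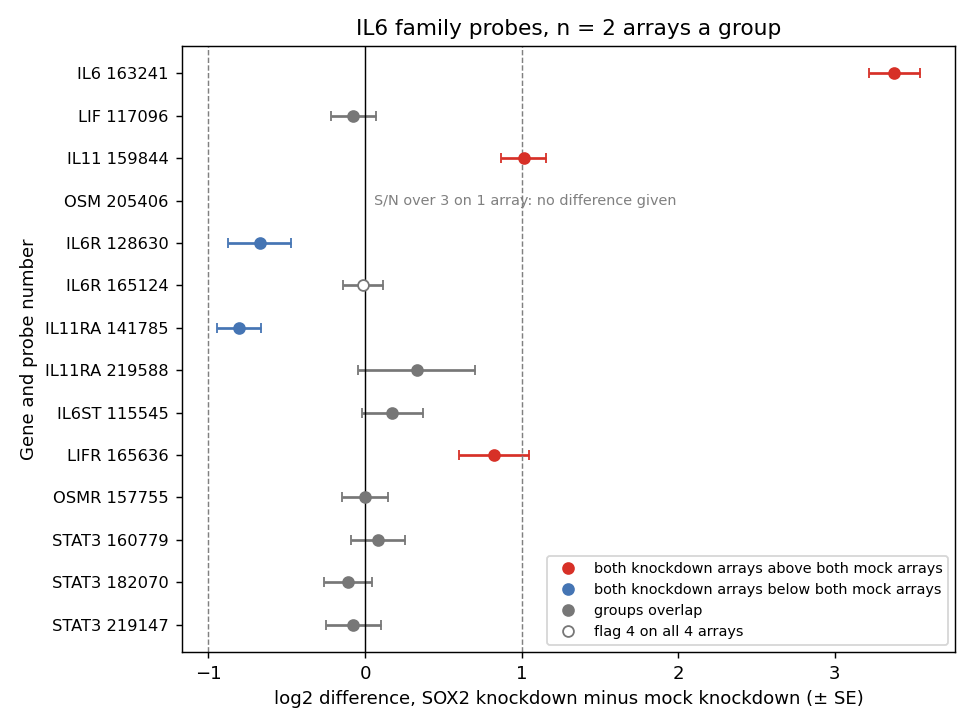
log2 difference of SOX2 knockdown minus mock knockdown (x axis) for each IL6 family probe (y axis), with its standard error from the limma fit and n = 2 arrays per group; dashed lines mark 2-fold. The white marker is the *IL6R* probe with flag 4 on all 4 arrays. *IL6* stands at 3.38, *IL11* at 1.01, and the other probes lie between -0.80 and 0.82.

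Over the family, 13 of the 14 probes passed the S/N filter, which stood for 9 of the 10 genes. *IL6* and *IL11* were over 2-fold higher, beside 1.57% of all compared probes, and no member was over 2-fold lower, beside 1.04%. The groups did not overlap in 5 member probes, 3 higher (*IL6*, *IL11* and *LIFR*) and 2 lower (1 each of *IL6R* and *IL11RA*), and they overlapped in the other 8. Among all compared probes the knockdown arrays lay wholly above the mock arrays in 21.2% and wholly below them in 25.8%. The median log2 difference was -0.00 over the 13 member probes and 0.04 over the 12 without the flagged *IL6R* probe, beside -0.00 over all probes. These counts come from the contrast by which the family was chosen, so nothing is read from them.

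**Figure D3:**
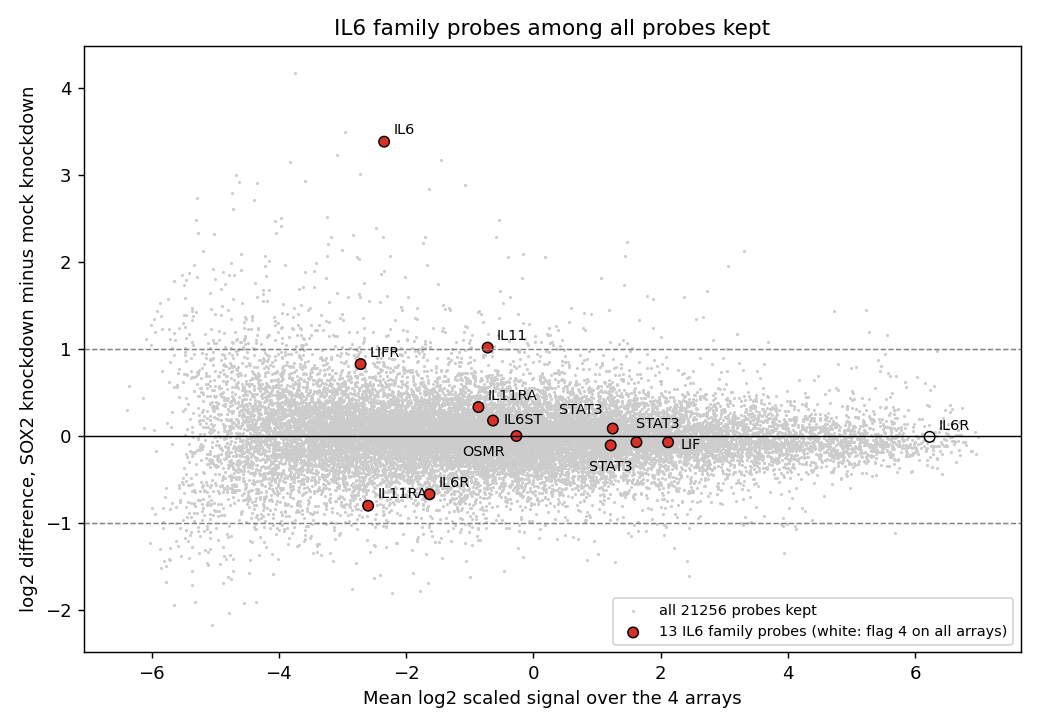
log2 difference of SOX2 knockdown minus mock knockdown (y axis) against the mean log2 scaled signal over the 4 arrays (x axis) for the 21256 probes compared (grey) and the 13 IL6 family probes among them (red, or white for the *IL6R* probe with flag 4 on all arrays); dashed lines mark 2-fold. *IL6*, at 3.38, lies near the top of the plot, while *STAT3*, *LIF*, *OSMR* and *IL6ST* lie within the bulk of the probes.

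The genes around the family were taken from 6 lists, namely other cytokines and receptors of the family, signalling proteins, inhibitors, receptor-shedding proteases, STAT3 target genes and regulators of the *IL6* gene or its mRNA. The lists held 69 genes, and 69 probes of 59 of them passed the S/N filter. By limma with Benjamini-Hochberg adjustment over all compared probes, 0 of these 69 probes passed an adjusted p of 0.05, as did 0% of all probes. At an unadjusted p under 0.05 there were 10 higher and 9 lower, where all probes gave 7.9% higher and 9.16% lower. Over the 2-fold cutoff there were 5 higher and 2 lower, beside 1.57% and 1.04% of all probes, and the median log2 difference of the 69 probes was 0.02. With scaling to the median of each array, and in the authors' processed table, the same 7 probes that were over 2-fold in the main setting had an adjusted p under 0.05, as did 826 and 758 of all probes. The *SAA1* probe, among these 7, passed the S/N filter through the knockdown arrays alone.

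In the list of other family members, *CLCF1*, encoding a cytokine that acts through gp130, LIFR and the CNTF receptor, gave 0.0957 and 0.0974 in mock and 0.230 and 0.211 in knockdown. Its ratio was 2.29 and its log2 difference 1.19 (SE 0.13, limma adjusted p = 0.0833). Its groups did not overlap, and its ratio was 1.42 with normexp. The receptor gene *IL31RA* had a log2 difference of 0.47 on 1 probe near the S/N limit, *CNTFR* of 0.10 and *CTF1* of -0.18, and *IL27* and *IL27RA* stood at 0.02 and 0.04.

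Among the 16 signalling probes that passed the filter, 1 was over 2-fold higher and none lower, beside 1.57% and 1.04% of all compared probes. *GAB1*, an adaptor that links gp130 to the MAP kinase and PI3 kinase pathways, gave 0.206 and 0.172 in mock and 0.376 and 0.381 in knockdown on probe 231715, a ratio of 2.002 and a log2 difference of 1.01 (SE 0.15, limma adjusted p = 0.106). This probe has a gene ID of its own and no transcript accession, and its ratio was 1.96 with median scaling and 1.98 in the authors' processed table. Its ratio was 1.83 without mock replicate 2 and 1.99 without knockdown replicate 2, both under the cutoff. The *GAB1* probe matched to RefSeq transcripts, 158426, did not pass the S/N filter and gave 0.0429 and 0.0392 in mock and 0.0312 and 0.0302 in knockdown, lower rather than higher. The related adaptor *GAB2* had a log2 difference of -0.58 (limma adjusted p = 0.167). *GRB2* stood at 0.28 and 0.02 on its 2 probes. The kinase gene *JAK1* stood at -0.10, *JAK2* at 0.09 and -0.22 on its 2 probes, and *TYK2* at -0.24.

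Of the 13 inhibitor probes, 1 was over 2-fold lower, beside 1.04% of all compared probes. *SOCS2*, a suppressor of cytokine signalling best known for restraining growth hormone signals, gave 0.733 and 0.853 in mock and 0.396 and 0.356 in knockdown, a ratio of 0.474 and a log2 difference of -1.07 (SE 0.15, limma adjusted p = 0.102). *SOCS3*, the inhibitor that binds gp130 and that STAT3 itself induces, gave 0.196 and 0.237 in mock and 0.334 on both knockdown arrays, with a log2 difference of 0.63 (SE 0.15, limma adjusted p = 0.171). These suppressors thus differed in direction. The *SOCS2* ratio was 0.62 with normexp and 0.513 without mock replicate 2, neither past the cutoff. *PIAS4* stood at 0.75, *PIAS1* at -0.30 and *SOCS1* at -0.22. The genes for the proteases that shed the IL6 receptor from the cell surface were both lower on every knockdown array. Among all compared probes, 25.8% lay wholly lower in the same way. The log2 difference was -0.56 for *ADAM10* (limma adjusted p = 0.161) and -0.29 for *ADAM17* (limma adjusted p = 0.425).

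**Figure D4:**
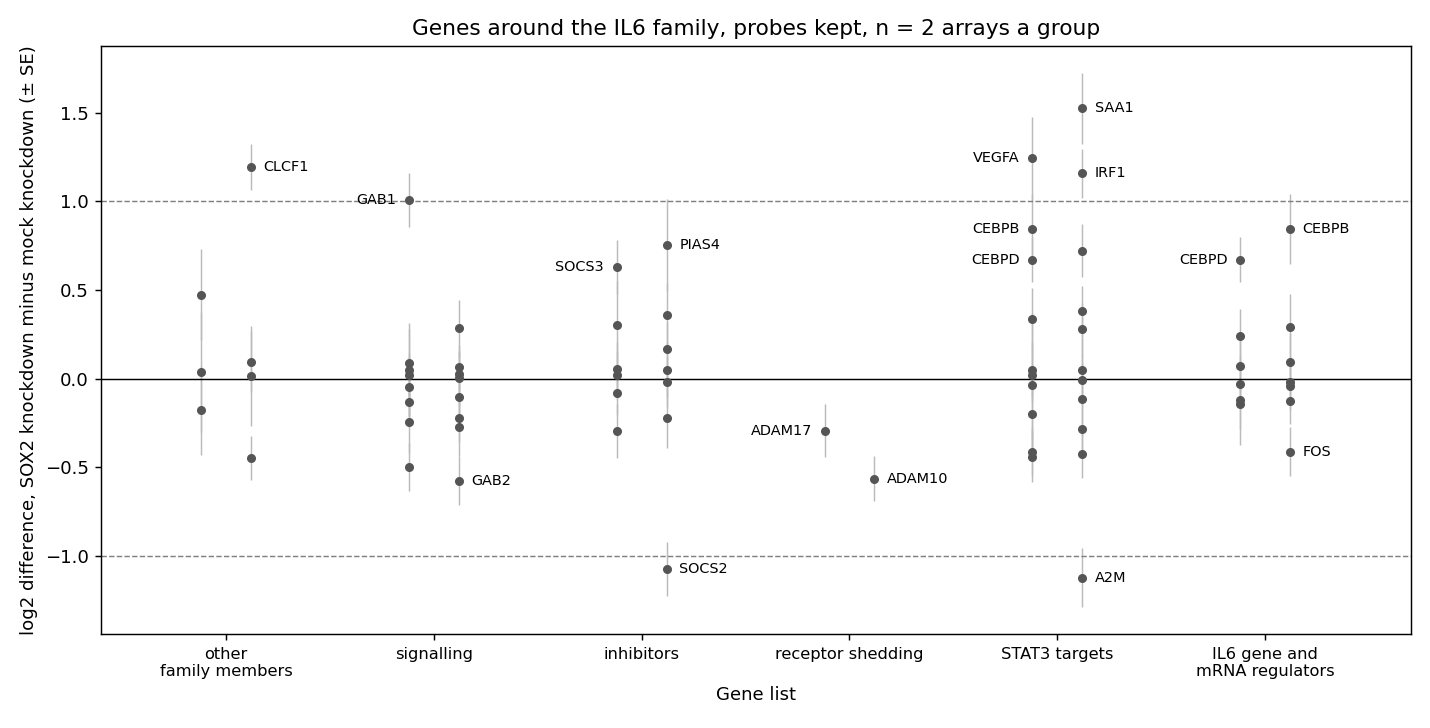
log2 difference of SOX2 knockdown minus mock knockdown (y axis, with standard errors from the limma fit, n = 2 arrays per group) for each probe that passed the S/N filter in the 6 lists (x axis); dashed lines mark 2-fold and some genes are named. *CLCF1*, *GAB1*, *SAA1*, *VEGFA* and *IRF1* lie above the upper line and *SOCS2* and *A2M* below the lower one.

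The STAT3 target list had 21 probes that passed the filter. Of these, 3 were over 2-fold higher and 1 lower, beside 1.57% and 1.04% of all compared probes. *IRF1*, encoding an interferon-regulated transcription factor, gave 0.429 and 0.488 in mock and 1.003 and 1.04 in knockdown, a ratio of 2.23 (limma adjusted p = 0.0938). *VEGFA*, encoding the angiogenic growth factor and named VEGF on the array, gave 0.183 and 0.260 in mock and 0.573 and 0.465 in knockdown, a ratio of 2.34 (limma adjusted p = 0.129). The acute-phase gene *SAA1* was at or under the S/N limit on both mock arrays. Its scaled signals were 0.0231 and 0.0262 in mock and 0.0609 and 0.0822 in knockdown. It passed the filter through the knockdown arrays alone, so no p-value is given for it. With S/N over 3 required on all 4 arrays it left the comparison, and pathway list probes over 2-fold numbered 6. Placing each dim array at its own signal or, if higher, at the dimmest signal that passed S/N 3 on that array gave a fold of 2.88. Both mock arrays kept their own signals under this rule, so 2.88 restates the log2 difference of 1.525 and is no lower bound. A bound that also takes each dim array to be no lower than 3 times the probe's noise gave 2.31. The *SAA1* ratio was 1.43 with a floor of 0.05. With normexp, the ratios of *SAA1*, *VEGFA* and *IRF1* were 1.58, 1.79 and 1.98, all under the cutoff. Without mock replicate 1 the *VEGFA* ratio was 1.994, also under it. *A2M*, encoding the protease inhibitor alpha-2-macroglobulin, gave 71.1 and 80.8 in mock and 38.3 and 31.6 in knockdown, a ratio of 0.460 (limma adjusted p = 0.105), but carried flag 4, described above for *IL6R*, on both mock arrays and on neither knockdown array, so its call and the size of its ratio rest on flagged signals. Without knockdown replicate 2 the *A2M* ratio was 0.504, which did not pass the cutoff. *SERPINA3* carried flag 4 on all 4 arrays, and nothing is read from its difference, which the figure draws. *MYC* stood at a log2 difference of 0.72 and *BCL6* at -0.42. In this list 12 of 21 probes had a difference above 0, with a median of 0.05, beside a median of -0.00 over all compared probes. The flagged *A2M* and *SERPINA3* probes are included in that count and median, as is the *TIMP1* probe, which carried flag 4 on mock array 1.

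Among the 13 probes for regulators of *IL6*, none was over 2-fold. The genes of the C/EBP factors, which bind the C/EBP motif shown above for *IL6*, were highest, with *CEBPB* at 0.914 and 1.22 in mock and 2.03 and 1.77 in knockdown (ratio 1.78, limma adjusted p = 0.165) and *CEBPD* at 4.23 and 4.38 in mock and 7.07 and 6.63 in knockdown (ratio 1.59, limma adjusted p = 0.131). Both also belong to the STAT3 target list, and whether either factor bound the *IL6* gene was not tested. The AP-1 gene *FOS* gave 23.9 and 21.1 in mock and 16.5 and 17.2 in knockdown, a log2 difference of -0.41 (limma adjusted p = 0.253), and *SP1* stood at -0.14. Of the NF-kappaB subunit genes the list held *NFKB1*, at 0.07, and *RELA*, at 0.24 and -0.03 on its 2 probes. The other subunit genes, looked up after the values were seen, stood at 1.15 for *NFKB2*, 0.75 for *RELB* and 0.11 for *REL* on the log2 scale.

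The genes whose pattern over the 4 arrays lay nearest to that of *IL6* were found by the Euclidean distance between log2 signals centred on each probe's mean, among 16060 probes with 1 gene symbol and S/N over 3 on all arrays. They were *LOC144501* (distance 0.532), *CXCL3* (0.556), *PTX3* (0.632), *TSLP* (0.648) and *CYP1A1* (0.911), where the median distance over all of these probes was 3.42. *CXCL3* encodes a chemokine that attracts neutrophils, and its probe gave 0.175 and 0.174 in mock and 1.25 and 1.32 in knockdown, a ratio of 7.36. *PTX3* encodes a secreted pentraxin of innate immunity, at 0.124 and 0.116 in mock and 0.923 and 0.797 in knockdown, and *TSLP* encodes an epithelial cytokine, at 0.0611 and 0.0465 in mock and 0.465 and 0.396 in knockdown. *CYP1A1* encodes a cytochrome P450 enzyme and had a ratio of 5.57, and *LOC144501* had a ratio of 8.96. With 4 arrays in 2 groups, a small distance requires that the knockdown arrays were higher by a like amount.

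**Figure D5:**
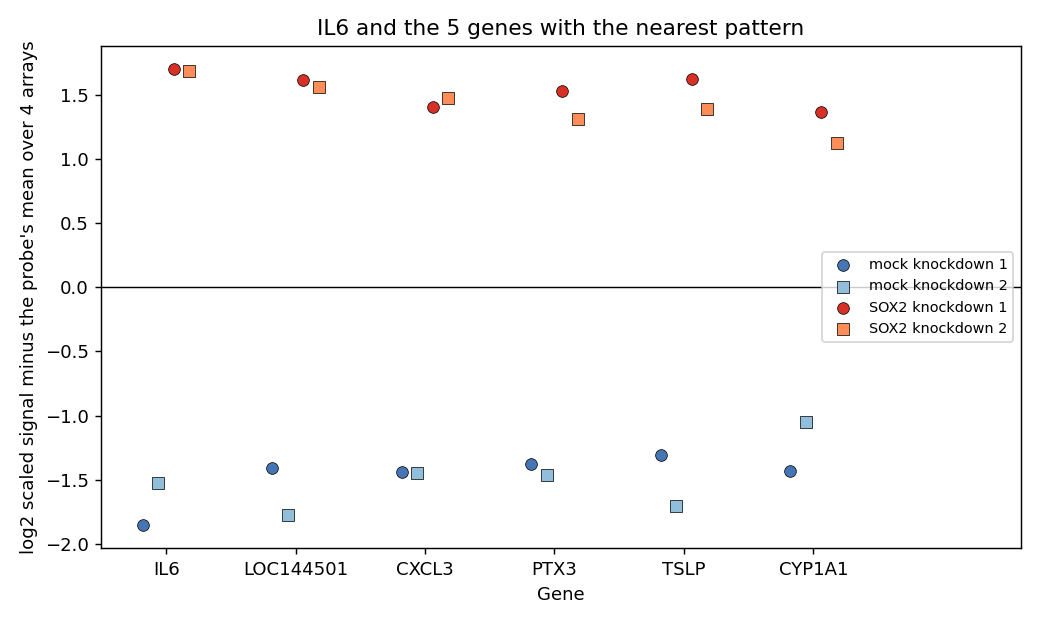
log2 scaled signal minus the probe's own mean over the 4 arrays (y axis) for *IL6* and the 5 genes nearest to it (x axis), 1 point per array. In each gene both knockdown arrays lie above 1 and both mock arrays below -1 on this scale.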

How the data were processed

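Gene expression in LN229 cells was profiled on Applied Biosystems arrays, 2 of mock and 2 of *SOX2* knockdown, grouped by the source names of the labels. The deposited scanner files hold linear intensity columns, and the normalized signal was used. Per the file headers S/N is its own column and serves here as a score of signal over noise. The authors' processed table holds a ratio per probe, and 100% of its values were within 5% of the scanner signal scaled to the array median and divided by the probe's median or 10; its column medians were 0.103 to 0.105, so it shares the median and not the 75th percentile. Software versions are not given in the sources used here.

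Control features and 210 probes with a flag of 5000 or more were left out. Signals were divided by the array's 75th percentile, floored at 0.01 and log2-transformed. Probes where both arrays of a group, in either or both groups, had S/N over 3 were fitted singly with limma 3.58.1 in R 4.3.3 (lmFit and eBayes, two-sided, no block, Benjamini-Hochberg over all 21256 probes), beside a 2-fold cutoff of linear means. Standard errors are limma's moderated ones. Precision is limited by having 2 arrays in each group. The fit was run on simulated data with independent noise, to check the sign and size of known differences and not the calls at an adjusted p.

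Members and lists were chosen with earlier results of these data known. Genes named are all members, *SOX2*, every listed gene over 2-fold, the listed genes with the largest other differences in each direction, and the 5 nearest to *IL6*; *JAK1*, *JAK2*, *TYK2*, *NFKB1*, *RELA*, *IL27* and *IL27RA*, and second probes, were added for their roles after their values were seen. Some genes that the rule names are not reported here. Of 102 list entries all were found on the arrays, 2 by synonym. Alternatives covered scaling, background, floor, S/N filter, averaging by gene ID, replicate block, variance trend and leaving out each array.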

Additional observations from a re-analysis of the deposited data

How the results depend on the processing

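The direction of *IL6*, *IL11*, *LIFR* and of *IL6R* probe 128630 held in the 9 alternatives that changed their values; 6 others (the floors, the S/N filters and the replicate blocks) leave these values as they are by construction. The *IL6* log2 difference was 1.88 with normexp and otherwise between 3.22 and 3.54, and that of *IL6R* probe 128630 ran from -0.89 without 1 array to -0.45 with normexp. Members over 2-fold higher numbered 1 in place of 2 with median scaling, with the authors' processed table and with normexp, and 1 to 3 when each array was left out in turn, while those lower stayed at 0. The count of 1 was without mock replicate 2, and the count of 3 was without knockdown replicate 1, where *LIFR* passed the cutoff. Without knockdown replicate 2, *IL11* fell below the cutoff and *OSM*, measured on the remaining knockdown array alone, entered the count. Pathway list probes over 2-fold numbered 1 with normexp and 12 with no S/N filter against 7, and 5 to 10 without 1 array. Those with a limma adjusted p under 0.05 numbered 7 with median scaling, 7 with the authors' table and 3 with a variance trend, against 0, and 0 when any 1 array was left out. Over all probes this count was 826, 758 and 287 under the same settings and 5 where all 4 arrays had to pass S/N 3, against 0, and 0 without any 1 array. All probes over 2-fold numbered 240 with normexp, 363 with a floor of 0.05, 302 where all 4 arrays had to pass S/N 3 and 1373 with no filter, against 554, and 782 to 1192 without 1 array. The pathway list probe still over 2-fold with normexp was *A2M*, at a ratio of 0.495 that rests on the flagged signals described above. The cause of the moves in these counts was not tested. Whether the replicate numbers pair the samples cannot be settled with 2 arrays per group, where the deviations of same-numbered arrays correlated at -0.48 and those of crossed numbers, by construction, at 0.48. With the replicate block 0 probes passed an adjusted p of 0.05 and 554 were over 2-fold. With the numbers crossed, an alternative chosen after seeing the data, 0 probes passed as well.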
